A study of Homo sapiens with 12 samples.

Results

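Expression of 9 genes of the complement system was compared across 4 groups of A549 libraries, namely that of *C3*, *C5*, *CFB*, *CFI*, *C1R*, *C1S*, *CD46*, *CD55* and *CD59*. They were chosen by name as complement proteins and membrane regulators that lung epithelium makes. All 9 were found among the 58735 genes of the count table and had enough counts to be tested, *CFI* through its control libraries alone. GFI1 is a transcription factor with zinc fingers that blood cells use in their development, and A549 is a long-established line of human lung adenocarcinoma cells. Both control and GFI1-expressing A549 cells were grown in RPMI1640 with serum, and were harvested attached to culture-treated plates or floating, after being kept on ultra-low attachment plates for 48 hours. This gave 4 groups of 3 RNA-Seq libraries, called attached control, attached GFI1, floating control and floating GFI1. According to the study's methods, GFI1 came from a lentiviral vector with a human PGK promoter and a GFP marker, and GFP-positive cells were sorted for RNA-Seq. The methods give an empty vector to the A549 controls of the animal assays, and whether the controls sequenced here carried it is not stated in the sources used here. The labels also do not say whether replicates came from separate cultures, so p-values measure only the spread between these libraries.

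Complement is a cascade of plasma proteins that tags surfaces for uptake, recruits leukocytes and can open pores in membranes. The proteases C1r and C1s start the classical pathway, factor B forms the enzyme of the alternative pathway, and both routes meet at C3 and then at C5. Human cells carry CD46, CD55 and CD59 on their own surface, where these proteins limit the cascade, and tumor cells often carry them as well. Most circulating complement comes from the liver, but lung epithelial cells also make several components.

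The regions upstream of the genes are shown first, as the sequences next to their start sites. Whether they bear on the changes given below was not tested. RefSeq promoter windows (GRCh38.p14), reaching from 250 bases before to 50 bases after a start site, matched 7 of the 9 genes, all but *C3* and *C1S*, in 13 windows. They were searched on both strands for 4 motifs: GAS, the element bound by STAT factors (TTCNNNGAA), an element of interferon regulatory factors (GAAANNGAA), kB, the element of NF-kB (GGANNTTCC), and the core of the GFI1 site (AATCNNNGC). Among 35114 windows of this length, 7.66% held GAS, 8.11% the interferon regulatory element, 4.57% kB and 11.02% the GFI1 core. At least 1 window each of *CFB*, *C1R* and *CD59* held a match to at least 1 motif, while those of *C5*, *CFI*, *CD46* and *CD55* held none of the 4. No member window held the GFI1 core, which says only that these letters are not in these windows. The matches are printed below in capitals within the 10 bases on each side, on the strand of the gene.
*CFB*, interferon regulatory element on the opposite strand, chr6:31945946-31945974, plus strand: cttctgcagtTTCTGTTTCcttgactggc
*CFB*, kB, chr6:31945988-31946016, plus strand: cctcccgcttGGATGTTCCgggaaagtga
*CFB*, GAS, chr6:31945993-31946021, plus strand: cgcttggatgTTCCGGGAAagtgatgtgg
*C1R*, GAS, chr12:7091961-7091989, minus strand: gccagtcctaTTCCTGGAAggggagggga
*CD59*, GAS, chr11:33736589-33736617, minus strand: ccacccggccTTCTCAGAAcctgggccag
*CD59*, kB, chr11:33736535-33736563, minus strand: agggagaggaGGAGGTTCCtgccgaggtg
The kB and GAS matches of *CFB* overlap, beginning at positions -97 and -92 from the start site. The GAS match of *C1R* begins at -86 from the start site of its window. Another *C1R* window, whose upstream bases (chr12:7092446-7092695) take in the annotated start of the gene, held none of the 4 motifs. Each *CD59* match lies in 2 overlapping windows of that gene, and its other windows held none. These matches are letters in a window and were not tested as binding sites.

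The libraries held between 17014188 and 20748677 counts, so that a gene with 3 counts or fewer in every library of a group was treated as at the floor. Values are given as CPM, counts relative to library size with TMM scaling in edgeR, with the SD over 3 libraries. *GFI1* itself was at 0.238 to 0.631 CPM in attached controls and at 285.6 to 294.4 CPM in attached GFI1 libraries. It was at 0.482 to 0.711 CPM in floating controls and at 430.2 to 705.5 CPM in floating GFI1 libraries. Every library thus matched its label as control or GFI1, which does not check the labels attached and floating. Replicates 2 and 3 of floating GFI1 differed most among replicates, with a chi-square per gene of 11.2 against 1.98 to 4.78 for the other pairs. The summed level of 6 epithelial markers fell in the order attached control (10386 to 10986 CPM), floating control (6529 to 6938), attached GFI1 (4222 to 4339) and floating GFI1 (3039 to 3411), and 5 or 6 of the 6 were at 1 CPM or more in each group. Markers of other cells were low: 8 leukocyte markers summed to 4.85 to 14.8 CPM, led by *CD14*, with *CD3E* at 0 in all groups; 6 fibroblast markers summed to 7.56 to 15.2 CPM, led by *COL1A1*, with *DCN* at 0 in all groups. The sum of 4 endothelial markers was 0.109 to 0.662 CPM in controls and 3.55 to 5.52 CPM in GFI1 libraries, led there by *CDH5*, with *KDR* at 0. The part of these markers in the results was not tested.

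With GFI1, *C3*, *C5*, *CFB* and *CFI* were lower in both attached and floating cells. *CD46* was slightly higher in both conditions, *CD55* and *C1S* passed the test as higher in attached cells, and *CD59* and *C1R* did so in floating cells. Suspension of control cells went with higher levels of *C3*, *CFB*, *C1S*, *CD46* and *CD55* and with less *C5*. In attached cells, 7 of the 9 genes passed the test between GFI1 and control, 3 higher and 4 lower, where 62.3% of all 17829 genes tested passed, 29.5% higher and 32.8% lower. In floating cells, 7 of 9 passed, again 3 higher and 4 lower, beside 60.4% of all genes, 29.3% higher and 31.1% lower. In control cells, 6 of 9 differed between floating and attached libraries, 5 higher and 1 lower, beside 40.1% of all genes, 19.6% higher and 20.5% lower. In GFI1 cells, 4 of 9 did, 3 higher and 1 lower, beside 31.3% of all genes, 15.0% higher and 16.3% lower. All calls used the quasi-likelihood test of edgeR and an adjusted p (Benjamini-Hochberg, over all genes tested) of 0.05 or less. *CFI* is among the genes called for GFI1, with or without a fold threshold, but passed the count filter only through control libraries. When a fold of at least 2 was asked for as well, 3 of the 9 genes were left for GFI1 in attached and 4 in floating cells, beside 18.2% and 17.3% of all genes, 1 and 0 for suspension in control and GFI1 cells, beside 5.10% and 2.80%, and 0 for the interaction, beside 1.35%. The median log2 change of the 9 genes was 0.04 for GFI1 in attached and -0.12 in floating cells, beside -0.01 and 0.01 over all genes tested. For suspension it was 0.42 in control and 0.20 in GFI1 cells, beside 0.01 and 0.00 over all genes.

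**Figure D1:**
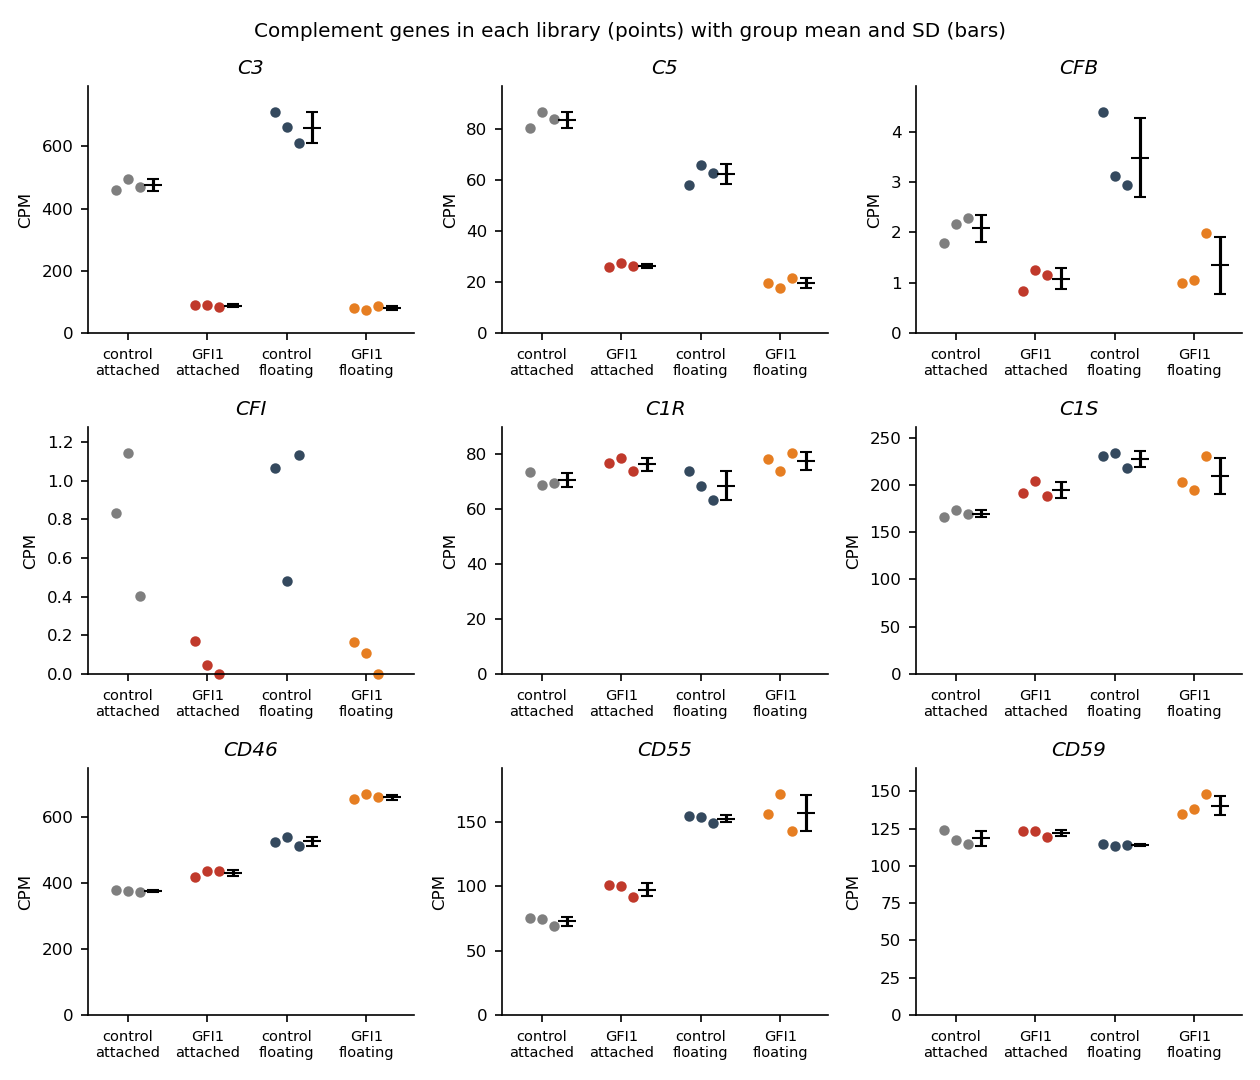
Level of each of the 9 complement genes in CPM (vertical axis, linear from 0) in the 3 libraries of each group (points), with the group mean and SD (black bars; *CFI*, with 0 to 21 counts a library, has points only). *C3* and *C5* are low in both GFI1 groups, *CD55* is high in both floating groups, and *CD46* rises from 374.7 CPM in attached controls to 659.1 CPM in floating GFI1 libraries.

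C3, the protein on which all pathways converge, gave the largest number of counts of the 9 genes in controls. *C3* (chr19:6677704-6730562, minus strand, GRCh38) was at 460.3, 496.0 and 470.0 CPM in attached controls and at 90.6, 90.7 and 83.3 CPM in attached GFI1 libraries. It was at 709.0, 661.5 and 611.3 CPM in floating controls and at 81.5, 74.0 and 87.0 CPM in floating GFI1 libraries. Every GFI1 library was below every control library, whether attached or floating. GFI1 libraries were 5.39-fold lower when attached (log2 change -2.43 ± 0.06 SE, adjusted p = 1.27e-21) and 8.17-fold lower when floating (-3.03 ± 0.06, adjusted p = 2e-23). In control cells, suspension raised *C3* 1.39-fold, with no overlap between the groups (0.47 ± 0.05, adjusted p = 1.02e-07). In GFI1 cells, the floating and attached libraries overlapped, and the log2 difference was -0.12 ± 0.06 (adjusted p = 0.13), which became -0.18 (adjusted p = 0.0244) without floating GFI1 replicate 3. The annotated *C3* gene shares 649 bases with *GPR108* on the same strand, which had 762 to 1202 counts.

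C5 is cleaved into the attractant C5a and into C5b, which begins the membrane pore. *C5* (chr9:120952335-121050276, minus strand) was at 80.3, 86.4 and 84.0 CPM in attached controls, and at 25.7, 27.3 and 26.1 CPM in attached GFI1 libraries. In floating controls it was at 58.0, 66.0 and 62.8 CPM, and in floating GFI1 libraries at 19.7, 17.6 and 21.4 CPM. The 4 groups did not overlap, in the order attached control, floating control, attached GFI1 and floating GFI1. *C5* fell with GFI1 3.16-fold when attached (-1.66 ± 0.06, adjusted p = 8.8e-18) and 3.17-fold when floating (-1.67 ± 0.07, adjusted p = 3.39e-17). The interaction of the 2 factors was -0.01 ± 0.09 (adjusted p = 0.984). With suspension, *C5* fell by 0.42 on the log2 scale in control cells (± 0.06, adjusted p = 1.34e-06) and by 0.43 in GFI1 cells (± 0.07, adjusted p = 3.85e-05). In controls, suspension thus moved *C3* and *C5* in opposite directions.

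Factor B supplies the catalytic part of the alternative pathway's C3-cleaving enzyme. *CFB* (chr6:31945650-31952084, plus strand) was counted at a low level, with 15 to 74 counts a library. It was at 1.79, 2.17 and 2.30 CPM in attached controls and at 0.845, 1.25 and 1.15 CPM in attached GFI1 libraries. In floating controls it was at 4.39, 3.13 and 2.95 CPM, and in floating GFI1 libraries at 0.993, 1.05 and 1.99 CPM, where replicate 3 stood above the other two. The groups did not overlap in either GFI1 comparison, and *CFB* fell with GFI1 by 0.93 ± 0.28 on the log2 scale in attached (adjusted p = 0.00576) and by 1.35 ± 0.26 in floating libraries (adjusted p = 5.95e-05). Suspension raised it by 0.74 ± 0.24 in control cells (adjusted p = 0.0168). That call was lost without attached control replicate 1 (0.64, adjusted p = 0.0748) or floating control replicate 1 (0.54, adjusted p = 0.132). In GFI1 cells the difference was 0.32 ± 0.30 (adjusted p = 0.473), and without floating GFI1 replicate 3 it was -0.10. On the same strand, *AL645922.1* overlaps *CFB* by 6399 bases and had 0 counts in every library. How reads in these shared bases were assigned is not given, and whether that lowered the *CFB* counts was not tested.

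Factor I cuts C3b and C4b into inactive forms when a cofactor such as CD46 holds them. *CFI* (chr4:109740694-109802179, minus strand) had 14, 21 and 7 counts in attached controls and 18, 8 and 20 counts in floating controls. GFI1 libraries had 3, 1 and 0 counts when attached and 3, 2 and 0 counts when floating, all at or under the floor. Summed over replicates, the 42 counts of attached controls against 4 with GFI1 gave a level 11.9-fold lower (exact 95% interval 4.30 to 45.5). The 46 counts of floating controls against 5 with GFI1 gave a level 10.1-fold lower (4.05 to 32.7). These intervals cover counting error only. The edgeR test, which is of the fitted change and not of these ratios, gave an adjusted p of 0.000177 in attached and 0.000186 in floating cells. *CFI* passed the count filter only through control libraries, and was not tested when only the 2 groups of either GFI1 comparison were fitted. The fitted log2 changes depend on edgeR's default prior count. In attached cells they ran from -4.70 without attached GFI1 replicate 1 to -2.88 without attached GFI1 replicate 3. In floating cells they ran from -3.92 without floating GFI1 replicate 1 to -2.64 without floating GFI1 replicate 3. A suspension effect on *CFI* was not detectable in controls (0.17 ± 0.45, adjusted p = 0.803), and none could be measured in GFI1 cells. *AC126283.2*, on the same strand, overlaps *CFI* by 61306 bases and had 0 counts in every library. Whether the assignment of reads in these shared bases lowered the *CFI* counts was not tested.

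C1r and C1s are the paired proteases of the first complement component, and their genes are neighbors on chromosome 12. *C1R* (chr12:7080199-7092607, minus strand) varied least of the 9 genes, with an SD of 0.10 in log2 CPM over all libraries. It was at 73.3, 68.7 and 69.4 CPM in attached controls, 76.5, 78.5 and 73.7 CPM in attached GFI1, 73.7, 68.4 and 63.1 CPM in floating controls and 78.3, 73.6 and 80.1 CPM in floating GFI1 libraries. The attached groups lay close without overlap and the floating groups overlapped. The GFI1 effect was 0.11 ± 0.05 for attached (adjusted p = 0.0666) and 0.18 ± 0.05 for floating libraries (adjusted p = 0.00578). Both calls changed with the setting. The attached difference passed when only the libraries of the 2 attached groups were fitted (0.15, adjusted p = 0.00758). With all libraries kept, it passed under upper quartile scaling (0.17, adjusted p = 0.00775) and with scaling by totals alone (0.26, adjusted p = 0.000115). So it did when genes under 10 counts in any library were left out (0.14, adjusted p = 0.0213). It also passed without attached control replicate 1 (0.14, adjusted p = 0.0495), floating GFI1 replicate 1 (0.14, adjusted p = 0.0353) or floating GFI1 replicate 2 (0.14, adjusted p = 0.0194), and the floating call was lost without floating control replicate 3 (0.12, adjusted p = 0.0719). Between floating and attached libraries *C1R* differed by -0.04 ± 0.05 in control cells (adjusted p = 0.57) and by 0.02 ± 0.05 in GFI1 cells (adjusted p = 0.813). *C1R* shares 3021 bases with *C1RL* on the same strand, a gene with 860 to 2142 counts that was 1.68-fold higher with GFI1 in attached cells (adjusted p = 1.9e-13). How reads in the shared bases were assigned is not given in the sources used here.

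*C1S* (chr12:6988259-7071032, plus strand) was at 166.0, 173.4 and 169.0 CPM in attached controls, 191.4, 204.1 and 188.2 CPM in attached GFI1, 230.9, 233.3 and 217.6 CPM in floating controls and 203.3, 194.8 and 230.7 CPM in floating GFI1 libraries. Attached controls were the lowest group and did not overlap with any other, while the 2 floating groups overlapped. *C1S* was slightly higher with GFI1 in attached cells (0.20 ± 0.05, adjusted p = 0.00195). In floating cells the difference was -0.12 ± 0.05 (adjusted p = 0.0581), and it passed the test with robust estimation (adjusted p = 0.0365), with no count filter (adjusted p = 0.0484), and without floating control replicate 3 (-0.15, adjusted p = 0.0357) or floating GFI1 replicate 3 (-0.19, adjusted p = 0.00077). With libraries scaled by their totals alone this difference was 0.01. Suspension raised *C1S* by 0.42 ± 0.05 in control cells (adjusted p = 3.76e-07). In GFI1 cells it differed by 0.11 ± 0.05 (adjusted p = 0.124), and by 0.14 (adjusted p = 0.0363) without floating GFI1 replicate 2. The annotated *C1S* gene overlaps *EMG1* on the same strand by 9170 bases (378 to 871 counts) and *LPCAT3* on the opposite strand by 30252 bases (447 to 641 counts).

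**Figure D2:**
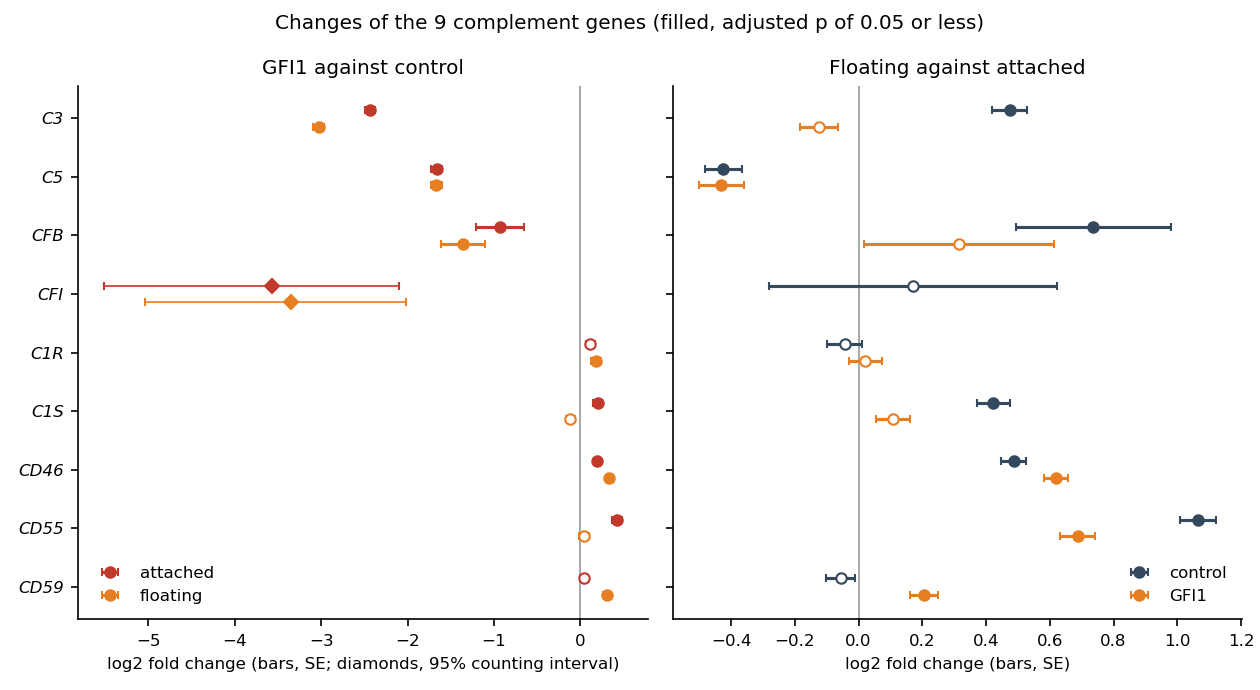
Fitted log2 fold changes (horizontal axis; bars, SE) of the 9 genes for GFI1 against control (left, attached and floating cells) and for floating against attached cells (right, control and GFI1 cells). In the right panel *CFI* is not drawn for GFI1 cells, since both groups were at the floor. Filled points passed an adjusted p of 0.05, and diamonds give *CFI* in the left panel as the log2 ratio of summed counts, at -3.57 and -3.34, with its exact 95% counting interval. *C3*, *C5*, *CFB* and *CFI* lie left of 0 in the left panel, and *CD46* and *CD55* lie right of 0 in the right panel.

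CD46 is the surface cofactor with which factor I inactivates C3b and C4b. *CD46* (chr1:207752057-207795513, plus strand) was at 378.2, 375.4 and 370.6 CPM in attached controls, 417.6, 434.3 and 435.0 CPM in attached GFI1, 524.5, 538.2 and 512.4 CPM in floating controls and 651.9, 667.0 and 658.2 CPM in floating GFI1 libraries. The 4 groups did not overlap and rose in that order. GFI1 raised *CD46* 1.14-fold when cells were attached (0.20 ± 0.04, adjusted p = 0.000112) and 1.26-fold when they floated (0.33 ± 0.04, adjusted p = 5.68e-08). Suspension raised it 1.40-fold in control cells (0.49 ± 0.04, adjusted p = 2.2e-10) and 1.54-fold in GFI1 cells (0.62 ± 0.04, adjusted p = 6.21e-12). The interaction was 0.13 ± 0.05 (adjusted p = 0.134). *CD46* was thus the only one of the 9 genes that passed the test and rose in all 4 of these comparisons.

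CD55, or decay-accelerating factor, takes apart the enzymes that cleave C3 and C5. *CD55* (chr1:207321376-207386804, plus strand) was at 75.3, 74.7 and 69.1 CPM in attached controls and at 101.0, 100.3 and 91.6 CPM in attached GFI1 libraries. In floating controls it was at 154.7, 154.3 and 149.5 CPM, and in floating GFI1 libraries at 156.8, 171.6 and 143.5 CPM. The attached groups did not overlap, whereas the floating GFI1 libraries fell on both sides of the floating controls. *CD55* rose 1.34-fold with GFI1 in attached cells (0.42 ± 0.06, adjusted p = 6.75e-07), and the difference in floating cells was 0.04 ± 0.05 (adjusted p = 0.536), or -0.02 without floating GFI1 replicate 2. Suspension raised it 2.09-fold in control cells (1.07 ± 0.06, adjusted p = 1.25e-13), the strongest rise of the 9 genes in any comparison, and 1.61-fold in GFI1 cells (0.69 ± 0.05, adjusted p = 4.71e-10).

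CD59 stops the last step, the assembly of the pore. *CD59* (chr11:33703010-33736491, minus strand) was at 124.1, 117.2 and 114.4 CPM in attached controls, 123.2, 123.1 and 119.7 CPM in attached GFI1, 114.5, 113.2 and 114.3 CPM in floating controls and 135.1, 138.5 and 147.9 CPM in floating GFI1 libraries. The floating GFI1 libraries were above all others, and the attached groups overlapped. GFI1 raised *CD59* 1.23-fold in floating cells (0.30 ± 0.04, adjusted p = 1.84e-06), while the difference in attached cells was 0.04 ± 0.04 (adjusted p = 0.436). Suspension raised it 1.15-fold in GFI1 cells (0.20 ± 0.04, adjusted p = 0.000703), and in control cells the difference was -0.06 ± 0.04 (adjusted p = 0.344). *AL049629.2*, on the same strand, overlaps *CD59* by 19458 bases (0 to 4 counts).

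The GFI1 effect was next compared between floating and attached cells by the interaction term, which asks whether the log2 change in floating cells differs from that in attached cells. It passed for 4 of the 9 genes, 1 higher and 3 lower, where it passed for 10.8% of all genes, 4.76% higher and 6.01% lower, and its median was -0.01 over the 9 genes and -0.00 over all genes tested. For *C3* the interaction was -0.60 ± 0.08 (adjusted p = 1.31e-05), for *C1S* -0.32 ± 0.07 (adjusted p = 0.00566) and for *CD55* -0.38 ± 0.08 (adjusted p = 0.00193). Each of these 3 genes rose with suspension in control cells, and in GFI1 cells the change was smaller for *CD55* and did not pass the test for *C3* and *C1S*. For *CD59* it was 0.26 ± 0.06 (adjusted p = 0.00667). The interaction of *CFB* was -0.42 ± 0.39 (adjusted p = 0.576) and that of *C1R* 0.06 ± 0.08 (adjusted p = 0.676), and for *CFI* it could not be measured because GFI1 libraries were at the floor. *GFI1* itself was 1.93-fold higher in floating than in attached GFI1 libraries (adjusted p = 2.38e-08), and its part in these differences was not tested. In bulk libraries, fewer cells with a transcript and less RNA per cell cannot be told apart.

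Levels were compared between genes per kilobase of the gene length given with the counts. That length may differ from the length of the transcripts made in these cells, which was not measured. Overlap or its absence covers only the spread between libraries, so the order between genes is approximate. Counts of genes that share bases with others were taken as they stand. In attached controls, the order was *C3* (57.1 CPM per kilobase), *CD46* (43.0), *C1S* (26.2), *C5* (12.8), *CD55* (12.4), *C1R* (11.97), *CD59* (11.4), *CFB* (0.417) and *CFI* (0.162). From *C5* to *CD59* each gene overlapped with its neighbor, and the other neighbors did not overlap. In attached GFI1 libraries, *CD46* led at 49.3 and *C3* stood sixth at 10.6 CPM per kilobase, below *C1S*, *CD55*, *C1R* and *CD59*, and no neighbors overlapped. In floating controls, *C3* led at 79.3 CPM per kilobase, followed by *CD46* at 60.3, *C1S* at 35.2 and *CD55* at 25.9, and only *C1R* and *CD59* overlapped. In floating GFI1 libraries, *CD46* led at 75.7 CPM per kilobase, *C3* was again sixth at 9.71, and only *CD59* and *C1R* overlapped.

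Set against each other within each library, the 3 membrane regulators and *C3* parted with GFI1. The summed level of *CD46*, *CD55* and *CD59* was 66.8 ± 1.45 CPM per kilobase in attached controls, 77.6 ± 1.02 in attached GFI1, 97.2 ± 1.86 in floating controls and 115.9 ± 2.73 in floating GFI1 libraries. Divided by *C3*, this sum was 1.17 ± 0.06 in attached controls and 1.23 ± 0.08 in floating controls, where the libraries overlapped. It was 7.34 ± 0.33 in attached GFI1 and 12.005 ± 1.26 in floating GFI1 libraries, the lowest of which was at 10.9, above the highest attached one at 7.70. The ratio of *C3* to *C5* was 4.46 ± 0.06 in attached controls, 2.62 ± 0.13 in attached GFI1, 8.36 ± 1.07 in floating controls and 3.24 ± 0.05 in floating GFI1 libraries. The ratio of *C1S* to *C1R* was 2.19 ± 0.12, 2.32 ± 0.05, 3.03 ± 0.16 and 2.47 ± 0.14 in the same order. These ratios combine levels tested above and were not tested again.

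**Figure D3:**
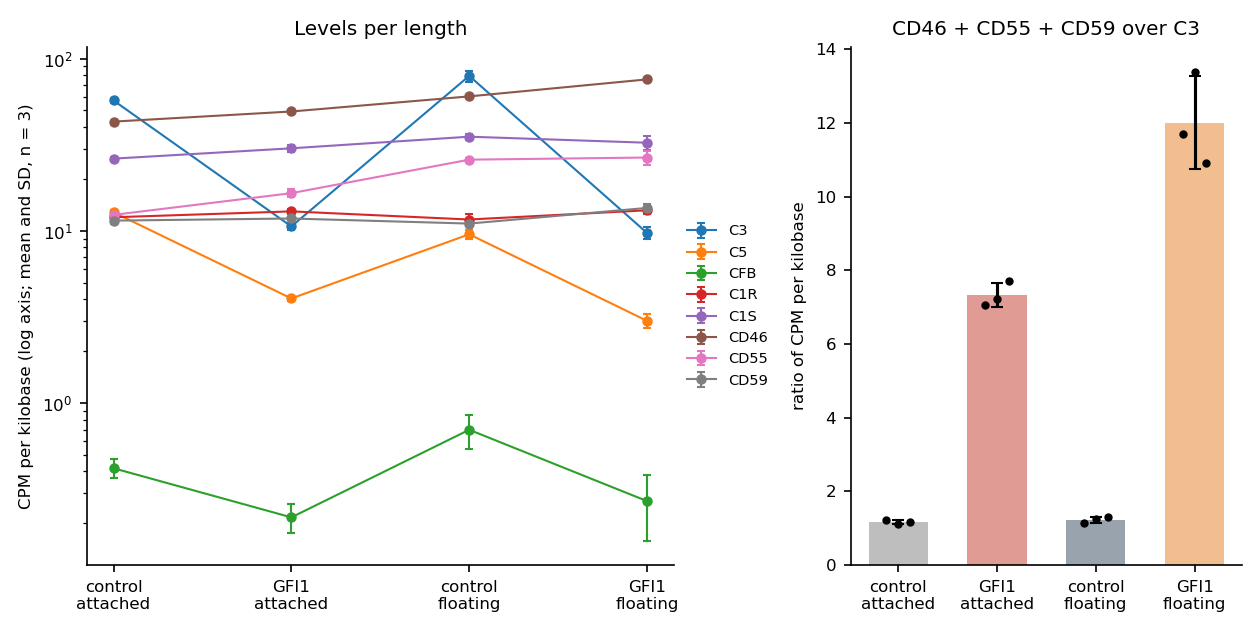
Left, mean level per length in CPM per kilobase (log axis; bars, SD, n = 3) of 8 complement genes in the 4 groups; *CFI* is left out because its GFI1 libraries were at the floor. Right, the sum of *CD46*, *CD55* and *CD59* divided by *C3* in each library (points) with mean (bars) and SD, which is near 1.2 in both control groups, 7.34 in attached GFI1 and 12.005 in floating GFI1 libraries.

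A list of 51 other complement genes, receptors and inhibitors was examined beside the 9. Of these, 23 had enough counts to be tested, and the other 28, among them the C1q genes, *C6*, *C7* and *C9*, never exceeded 11 counts in a library. The filter keeps a gene that is high in 1 group alone, so the counts below describe the 23 genes and not the list. In attached cells, 17 of the 23 passed the GFI1 test, 11 higher and 6 lower, beside 62.3% of all genes tested, and in floating cells 17 passed, 10 higher and 7 lower, beside 60.4%. For suspension, 12 passed in control cells (9 higher, 3 lower), beside 40.1% of all genes, and 11 in GFI1 cells (8 higher, 3 lower), beside 31.3%. The interaction passed for 5 (2 higher, 3 lower), beside 10.8%. The median log2 change of the 23 genes was 0.38 and 0.20 for GFI1 in attached and floating cells, beside -0.01 and 0.01 over all genes tested. It was 0.56 and 0.26 for suspension in control and GFI1 cells, beside 0.01 and 0.00, and -0.22 for the interaction, beside -0.00.

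*SUSD4*, a membrane inhibitor of complement, fell by 1.41 ± 0.20 on the log2 scale in attached (adjusted p = 1.15e-06) and by 2.24 ± 0.19 in floating libraries (adjusted p = 1.67e-10). *ITGAX*, a chain of complement receptor 4, fell by 1.13 ± 0.34 (adjusted p = 0.0056) and by 1.85 ± 0.24 (adjusted p = 2.13e-07), from low levels of 7 to 79 counts a library.

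In the other direction, *THBD*, which encodes thrombomodulin, an endothelial and epithelial receptor that also restrains complement, rose from 39.1 ± 1.59 to 346.8 ± 8.02 CPM with GFI1 in attached cells (3.15 ± 0.06, adjusted p = 2.58e-24). In floating cells it rose from 19.2 ± 1.09 to 326.9 ± 24.7 CPM (4.09 ± 0.06, adjusted p = 1.04e-25). *C4A* and *C4B* encode near-identical forms of C4, the next protein after C1s in the classical pathway, so their separate counts are uncertain. Summed, they were at 0.541 ± 0.289 CPM in attached controls (4 to 13 counts), 7.10 ± 1.86 in attached GFI1 (110 to 200 counts), 1.01 ± 0.318 in floating controls (11 to 22 counts) and 5.59 ± 0.607 CPM in floating GFI1 libraries (89 to 122 counts). Counted alone in attached cells, *C4A* rose by 3.10 ± 0.40 (adjusted p = 2.43e-07). *C4B*, at 3 counts in each attached control library, was 23.4-fold higher in attached cells as a ratio of summed counts (exact 95% interval 12.1 to 51.9). The edgeR test of the fitted *C4B* change in attached cells gave an adjusted p of 1.1e-11. In floating cells *C4A* rose by 1.78 ± 0.36 (adjusted p = 0.000154) and *C4B* by 3.37 ± 0.31 (adjusted p = 8.82e-10).

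**Figure D4:**
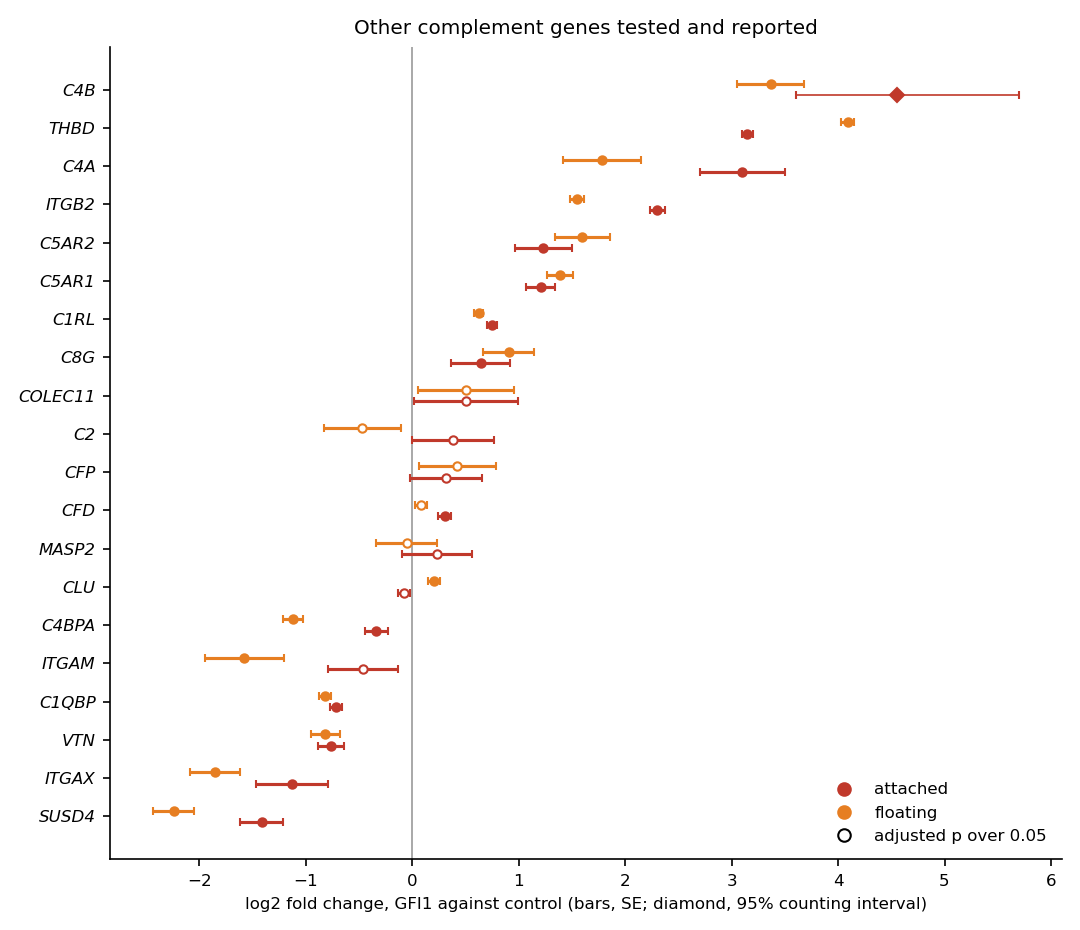
Log2 fold change with GFI1 (horizontal axis; bars, SE) of 20 of the 23 other complement genes tested, in attached and floating cells, ordered by the attached value; open points missed an adjusted p of 0.05, and the diamond gives *C4B* in attached cells as the log2 ratio of summed counts with its exact 95% counting interval. *SUSD4* lies at -1.41 and -2.24, and *THBD* at 3.15 and 4.09.

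Finally, for each of the 9 genes the 2 protein-coding genes with the most similar pattern over the 12 libraries were taken from 13761 such genes, by the root mean square difference of centered log2 CPM. This is a description over libraries that share groups. *C3* was closest to *NRP1* (0.08) and *TPCN1* (0.10), against an SD of 1.44 for *C3* itself. One of the 2 for *C5* was *ADAM9* (0.07), against an SD of 0.90. *CD46* was closest to *ZBTB1* (0.07) and *NFKBIA* (0.08), against an SD of 0.32, and *CD55* to *CTSL* and *FAM214B* (0.10 each), against an SD of 0.49. By distance alone, the genes of low counts had looser neighbors. Among them were *PCSK5* (0.24) for *CFB*, against an SD of 0.71, and *CACNG7* (0.46) and *HOXA3* (0.48) for *CFI*, against an SD of 1.35. The nearest to *C1R* were *REX1BD* and *GSTK1* (0.05 each), to *C1S* *GPR108* and *NCK1* (0.06 each), and to *CD59* *PDCD7* and *NME6* (0.05 each). None of the 9 genes was among the 2 nearest of another.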

How the data were processed

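The authors sequenced poly-A selected mRNA of 12 libraries (Illumina NovaSeq). The deposited values are raw counts per gene. The study's methods name FastQC, Hisat2 with GRCh38/hg38 and featureCounts, whereas the submitters' processing notes list Bowtie2, HTSeq and hg38. Annotation release and strand setting are not given in the sources used here. Gene positions and lengths are those in the table. Sample labels gave the groups and the replicate numbers.

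The counts were analyzed in R 4.3.3 with edgeR 4.0.16: filterByExpr (minimum count 10, minimum total 15) left 17829 genes, libraries were scaled by TMM, and 1 quasi-likelihood model with a mean for each of the 4 groups was fitted (biological coefficient of variation 4.86%). Tests of 5 contrasts were two-sided, with Benjamini-Hochberg adjustment over all genes. SE is the log2 change divided by the square root of F. Log2 CPM used a prior count of 2, the fitted changes used edgeR's default prior count, and the floor was 3 counts per library. For a gene at or under it in every library of 1 group, the ratio of summed counts per TMM-scaled library size was given with an exact (Clopper-Pearson) 95% interval. Depth was 17014188 to 20748677 counts per library, and floors cover counting error only. All 9 members were named. Of the 51 other complement genes, up to 3 with the highest and 3 with the lowest change among those past the threshold in each GFI1 contrast were named, and *C1RL* was added for its overlap. Some genes that these rules select are counted but not reported here by name or value. The members and lists were chosen with earlier results of these data known. The code was tested on simulated data.

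Alternatives were DESeq2 1.42.0, RLE, upper quartile and library size scaling, other count filters, robust estimation, only the 2 groups compared, a replicate block, stricter thresholds and leaving out each library. Numbers shared by replicates did not pair the libraries. No 2 replicates agreed within sampling noise.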

Additional observations from a re-analysis of the deposited data

Results flagged for a closer look

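The GFI1 effect differed between floating and attached cells for 4 of the 9 genes by edgeR's interaction term. The differences of log2 change (floating minus attached) were -0.60 for *C3*, -0.32 for *C1S*, -0.38 for *CD55* and 0.26 for *CD59*. Leaving out each library in turn kept all 4 past the threshold, with values from -0.65 to -0.54 for *C3*, -0.39 to -0.27 for *C1S*, -0.46 to -0.31 for *CD55* and 0.22 to 0.29 for *CD59*. The highest adjusted p over these fits was 0.000117 for *C3*, 0.036 for *C1S*, 0.0123 for *CD55* and 0.0283 for *CD59*. *GFI1* was also higher in floating than in attached GFI1 libraries, and its part in these differences was not tested.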

How the results depend on the processing

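Of 928 values of single genes under alternatives, 889 kept their direction and their side of the threshold, 3 lost and 15 gained significance, and 21 changed sign, none of them past the threshold. An added fold of at least 2 left 3 and 4 of the 9 genes for GFI1 (attached, floating), beside 18.2% and 17.3% over all. For suspension it left 1 and 0 (control, GFI1 cells), beside 5.10% and 2.80% of all genes, and for the interaction 0, beside 1.35%. Of the other complement genes it left 10 for GFI1 in attached cells, 5 and 2 for suspension and 0 for the interaction. No other alternative moved a count of the 9 genes or of the other complement genes by over 1.5 times. Scaling by library size alone moved the median of all genes from -0.01 to 0.14 (GFI1, attached) and from 0.01 to 0.14 (GFI1, floating), and the share of higher calls from 47.4% to 61.5% and from 48.5% to 61.4%. Under it *C1R* (0.26) and *CD59* (0.19) in attached and *CD55* (0.17) in floating cells passed the test, and *C1S* in floating cells turned to 0.014. Without a count filter the *C5* interaction was 0.012. Leaving out single libraries gave ranges of -0.020 to 0.10 for GFI1 on *CD55* in floating cells, of -0.15 to 0.54 for *CFI* and -0.10 to 0.010 for *C1R* under suspension in controls, of -0.10 to 0.48 for *CFB*, -0.34 to 1.64 for *CFI* and -0.0059 to 0.048 for *C1R* under suspension in GFI1 cells, and of -0.075 to 0.049 for *C5* and -0.51 to 1.47 for *CFI* in the interaction. The causes were not tested, and few counts limit *CFB* and *CFI*. *CFI* could not be tested with at least 10 counts in every library. Nor could it be tested with only the 2 groups compared, for GFI1 in attached or floating cells and for suspension in GFI1 cells.

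The replicate numbers did not pair the libraries (18 same-number correlations from -0.031 to 0.031). With a replicate block, 7, 7, 6, 4 and 4 of the 9 genes passed, and no call of these genes changed.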
